A study of Mus musculus with 4 samples.

Results

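The Ifi200 family of interferon-inducible DNA-binding proteins was followed through B220 B cells of Mef2c knockout and C57BL/6 mice by its members Ifi202b, Ifi203, Ifi204, Ifi205 and Aim2. Members were taken by those names in the gene name column of the deposited scanner files, with all of their probes, which gave 5 of 27729 genes or names and 10 of 41174 probes. The set was proposed with the expression of these genes on the same arrays in view, so their levels and differences are given as a description with no test.

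B220, a form of the phosphatase CD45 on the surface of B-lineage cells, marked the cells whose RNA was hybridised to 4 Agilent 1-colour arrays, 1 for each group. The groups were bone marrow KO (strain given as Mef2c KO), bone marrow WT (C57BL/6), spleen KO (Mef2c KO) and spleen WT (C57BL/6). All mice were naive and all cells were freshly isolated, and the study's title places the induced loss of Mef2c, a transcription factor of the B lineage, in the bone marrow. The part of Mef2c that was deleted, the Cre or inducing agent, the strain background of the KO mice, the age and sex of the mice, the number of animals behind an array and the method of B220 isolation are details not given in the sources used here.

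Proteins of the family carry a HIN domain, which binds DNA, and most also carry a pyrin domain, which recruits partner proteins. Aim2 binds double-stranded DNA in the cytosol and recruits the adaptor ASC (gene Pycard) and caspase-1 (Casp1) into an inflammasome, p204 (Ifi204) has been placed upstream of STING, and p202 (Ifi202b) has HIN domains but no pyrin domain and can hold DNA away from Aim2. Ifi202b is known for expression that differs between mouse strains, and the family lies as a cluster on mouse chromosome 1 that also holds Ifi206, Ifi207, Ifi209 and Ifi211.

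The sequences that report each gene are shown first, because the members share ancestry and a probe of 60 bases can only speak for the letters it holds. The probes below, written 5′ to 3′ from the deposited files and placed by the files on build mm9, are the brightest probe of each of 4 members. Capitals mark the longest run that the Ifi204 probe shares with any probe of another gene of the cluster, and the Ifi206 probe that carries the same run stands beside it.
Ifi202b, chr1:175892953-175893982, minus strand: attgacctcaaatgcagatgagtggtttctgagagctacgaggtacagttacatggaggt
Ifi203, chr1:175850608-175850667, minus strand: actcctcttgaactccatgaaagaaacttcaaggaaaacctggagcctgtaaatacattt
Ifi204, chr1:175679365-175679424, minus strand: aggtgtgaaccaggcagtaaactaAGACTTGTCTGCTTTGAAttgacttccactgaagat
Ifi205, chr1:175956747-175956806, minus strand: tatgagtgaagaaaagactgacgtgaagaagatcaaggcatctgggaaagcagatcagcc
Ifi206, chr1:175401530-175401589, minus strand: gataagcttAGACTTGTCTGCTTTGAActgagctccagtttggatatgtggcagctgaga

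The Ifi202b probe shared a run of at most 7 bases with a probe of another gene of the cluster and of at most 12 bases with a probe of any other gene on the array. Its 60 bases were placed over 1030 bases of the genome, so the probe spans an intron and reads spliced RNA. The Ifi204 and Ifi206 probes shared 18 bases in a row. These runs were sought among the probes of the array and not in transcripts. A short run therefore does not show that a probe reads a single gene. Another Ifi204 probe is listed in the files under transcripts of Ifi204, Ifi205 and Ifi211, and the only Ifi211 probe is listed under those genes too, so signal at both is uncertain between them. The Aim2 probe, at chr1:175395269-175395328 on the plus strand, was rich in A and T, with a GC content of 20.0%, against 45.0% for the Ifi202b probe.

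RefSeq promoters of the C57BL/6J reference, build GRCm38.p6, are shown for 3 members to set the interferon motif of the cluster beside the Ifi202b window. Each line holds the 250 bases before an annotated start site. Capitals mark the core of the interferon-stimulated response element, searched as GAAA, NN and GAAA without a gap, and the core of the STAT site, searched as TTCNNNGAA, both on either strand. For Ifi203, which has 2 annotated starts, the window that holds a match is printed.
Ifi202b, chr1:173982845-173983094, minus strand: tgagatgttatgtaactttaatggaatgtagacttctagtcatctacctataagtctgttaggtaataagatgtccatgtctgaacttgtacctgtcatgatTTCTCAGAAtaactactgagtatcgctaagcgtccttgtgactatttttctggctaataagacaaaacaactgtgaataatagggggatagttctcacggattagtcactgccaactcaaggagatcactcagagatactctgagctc
Ifi203, chr1:173942493-173942742, minus strand: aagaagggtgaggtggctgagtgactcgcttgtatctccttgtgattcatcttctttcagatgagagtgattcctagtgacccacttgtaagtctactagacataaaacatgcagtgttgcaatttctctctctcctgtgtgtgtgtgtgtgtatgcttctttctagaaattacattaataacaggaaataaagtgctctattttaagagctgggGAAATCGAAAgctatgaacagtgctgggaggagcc
Ifi205, chr1:174031756-174032005, minus strand: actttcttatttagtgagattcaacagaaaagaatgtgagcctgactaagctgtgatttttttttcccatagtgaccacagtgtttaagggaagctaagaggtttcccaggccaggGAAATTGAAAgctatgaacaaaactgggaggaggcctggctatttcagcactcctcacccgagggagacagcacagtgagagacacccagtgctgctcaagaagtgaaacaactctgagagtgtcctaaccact

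Windows from 250 bases before to 50 after a start were searched at 14 starts of 12 genes of the cluster, 4 of which have no value in the results below. The response element core was present in 10 of the 14 windows, in 9 of the 12 genes, against 3.44% of all 32851 promoters of the same length. Neither Ifi202b, Aim2 nor Ifi209 held it in this window. The letters around the core were shared to a degree that varied by pair, as the 30-base windows of 4 genes show, with the core in capitals.
Ifi203, chr1:173942508-173942537, minus strand: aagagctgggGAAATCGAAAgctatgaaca
Ifi205, chr1:174031870-174031899, minus strand: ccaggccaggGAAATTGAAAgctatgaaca
Ifi211, chr1:173913064-173913093, minus strand: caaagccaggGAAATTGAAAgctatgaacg
Ifi206, chr1:173491339-173491368, minus strand: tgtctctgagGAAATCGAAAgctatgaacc

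The Ifi203 and Ifi205 windows were identical at 23 of 30 bases, and the Ifi205 and Ifi211 windows at 27 of 30. The Ifi206 window was identical to that of Ifi205 and to that of Ifi211 at 20 of 30. The lowest pair of the cluster, Ifi214 and Ifi207, reached 17 of 30. These counts include the core, which the search itself fixed in most letters. Counted from the start site, the core began at -35 in Ifi203 and at -134 in Ifi205. The STAT core was found in 1 of the 14 windows, that of Ifi202b, at -148 from its start, against 8.30% of all promoters. A core of the PU.1 site, GAGGAA on either strand, was found in 5 of the 14 windows against 28.3% of all promoters, and in 4 of these it overlaps the response element. The consensus of MEF2, the family of the deleted factor, was in 0 of the 14 windows, against 3.19% of all promoters. These matches describe letters and not bound sites, and the Ifi204 promoter was not searched.

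The spleen KO array stood apart from the other 3 over all genes. The 75th percentile of its gene signals was 523.7, against 965.7 to 1011.8 on the other arrays, and 59.28% of its gene spots were well above background, against 69.05 to 71.98%. No Y-linked signal was found there: 0 of 4 such genes were well above background on spleen KO, against 4 of 4 on each other array. Where a transcript had 2 probes, the KO minus WT difference at the probe nearer its 3′ end exceeded that at the other by a median of 0.44 in spleen and 0.13 in marrow on the log2 scale, over 3800 transcripts, and the pair lay over 2-fold apart for 40.1% of transcripts in spleen and 5.95% in marrow. Markers of other cells differed as well. In units of each array's 75th percentile, 15 monocyte and macrophage markers summed to 320 on spleen KO against 143 on spleen WT. In marrow their sum was 364 on KO against 118 on WT. There it was carried mostly by Lyz2, at a log2 level of 8.14 on KO and 6.48 on WT. The sum of 13 neutrophil markers was 145 on spleen KO against 11.3 on spleen WT, and 1440 on marrow KO against 439 on marrow WT. The sum of 5 plasma cell markers was 13.4 on spleen KO against 54.0 on spleen WT. In spleen the neutrophil sums were carried mostly by S100a9, at a log2 level of 6.85 on KO and 2.97 on WT. Of the 13 neutrophil markers, 10 were well above background on spleen KO against 12 on spleen WT. The plasma cell sums were carried mostly by Jchain, at a log2 level of 3.27 on spleen KO and 5.51 on spleen WT. The sum of 10 dendritic cell markers was 35.9 on spleen KO against 15.4 on spleen WT, carried mostly by Bst2 and Tcf4. Of the 10, 3 were at least 2-fold higher and 3 lower in KO spleen, against 19.8% and 14.3% of all measured genes. Their median difference was -0.57. All 10 B cell markers were well above background on every array. Their sum was 1190 on spleen KO against 716 on spleen WT, and 482 on marrow KO against 548 on marrow WT. By gene, 4 were at least 2-fold lower and 0 higher in KO marrow, where 4.83% of all measured genes were lower and 8.43% higher. In KO spleen 5 were lower and 3 higher, where 14.3% of all measured genes were lower and 19.8% higher. Mef2c itself was not lower on the KO arrays by its brighter probe, which read 5511 on marrow KO against 4218 on marrow WT and 11838 on spleen KO against 8534 on spleen WT. Relative to each array's 75th percentile, its KO minus WT difference was 0.32 in marrow and 1.36 in spleen on the log2 scale. A dimmer Mef2c probe gave 0.36 in marrow and -0.61 in spleen, where it read 128 on KO against 364 on WT. As the deleted part is not stated, neither probe checks the labels.

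Signals below are background-corrected array brightness, each with the error that the scanner software assigns to it, which covers 1 array and not the spread between mice. A level is log2 of the signal relative to that array's 75th percentile over gene spots, and a difference is one level minus another, so a raw signal that is lower on spleen KO can stand for a higher level. A probe is called well above background by the software's own mark. Where only 1 of 2 arrays passed it, the difference is a lower bound, written as at least N-fold. Repeated spots of a probe within an array had a median SD of 0.0639 to 0.0780 in log2. Precision is limited by the number of arrays, and with 1 in each group nothing here is checked by a replicate. In these bulk samples, fewer cells of a type and less RNA per cell cannot be told apart.

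Ifi202b passed the background mark on 1 array of the 4. Its probe read 1755 ± 176 on spleen KO, against 10.6 ± 4.39 on spleen WT, and 4.29 ± 3.76 on marrow KO, against 3.41 ± 3.40 on marrow WT. It was well above background on spleen KO and on none of the other 3 arrays. The difference in spleen was therefore at least 168-fold, or at least 7.39 in log2, higher in KO. Between the KO arrays it was at least 205-fold higher in spleen than in marrow, a bound of 7.68 in log2. No comparison in marrow could be made, since neither marrow array was well above background. On spleen WT the scanner software's own p-value against background was 1.24e-09. Failing the mark there thus does not show that signal was absent.

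Ifi202b was chosen with these arrays in view and passed the filter through spleen KO alone, so its ranks here are a description. Among 328 genes well above background on spleen KO and not on spleen WT, its bound ranked 1, and 0 of the genes measured in spleen had a larger difference or bound. In all, 87 genes were well above background on spleen KO and on no other array, and the level of Ifi202b, 1.74, ranked 1 among them. The KO animals behind the marrow and the spleen array carry the same strain label, and Ifi202b was well above background on only the spleen one. That array also lacked the Y-linked signals. It had higher sums of macrophage markers (320 against 143 on spleen WT) and neutrophil markers (145 against 11.3, mostly S100a9). Both sums were also higher on marrow KO than on marrow WT (364 against 118, mostly Lyz2, and 1440 against 439). On spleen KO the sum of plasma cell markers was lower than on spleen WT (13.4 against 54.0, mostly Jchain), and that of B cell markers was higher (1190 against 716). The part of these in the Ifi202b value was not tested. As the strain background of the KO mice is not given, a strain difference at this gene and the Mef2c genotype cannot be told apart. By the Y-linked signals, present on spleen WT and absent on spleen KO, sex and genotype cannot be told apart in spleen either.

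**Figure D1:**
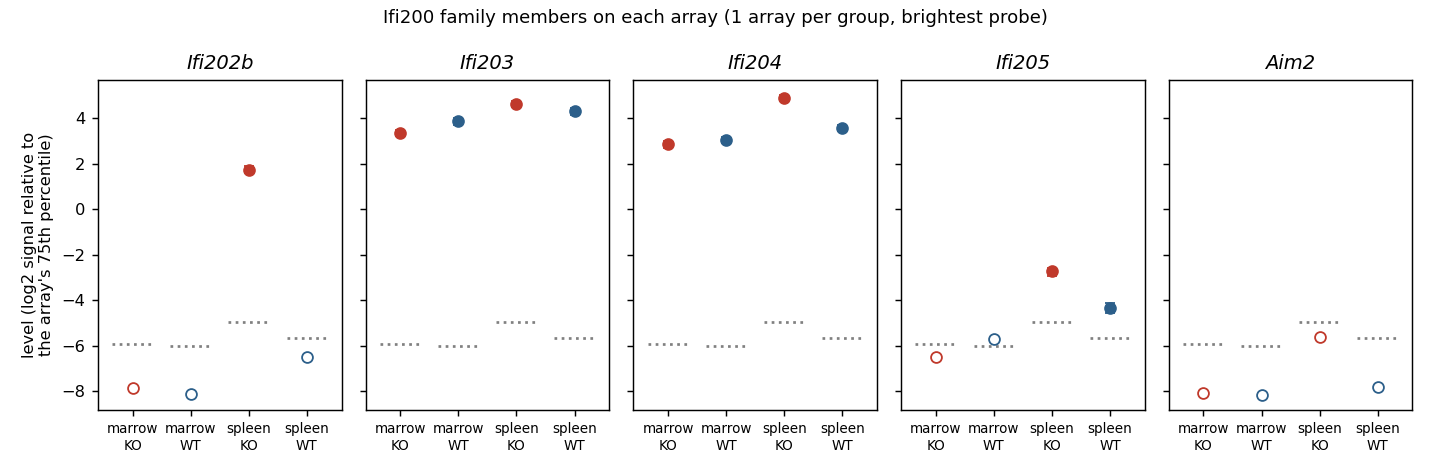
Level of each family member on the 4 arrays, as log2 signal relative to the array's 75th percentile (brightest probe, 1 array per group; red, KO; blue, WT). Filled marks are well above background, with bars for the scanner software's error where these are larger than the mark; open marks are not, and dotted lines are the lowest level well above background on that array. Ifi202b has 1 filled mark, at 1.74 on spleen KO, and Aim2 has none.

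Ifi203, a HIN protein whose role is less well described, was bright on all 4 arrays. Its brightest probe read 10318 ± 1032 on marrow KO, against 14066 ± 1407 on marrow WT, and 12844 ± 1284 on spleen KO, against 19110 ± 1911 on spleen WT. After scaling, KO minus WT was -0.51 in marrow and 0.32 in spleen, each with an error of 0.20 from the 2 scanner errors. Both lay inside 2-fold, and the spleen value was close to the median of all genes measured on both spleen arrays, 0.27.

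The 3 Ifi203 probes gave different answers in spleen. A second probe, which lies at base 2057 of another cDNA than the base 3496 of the first, read 1122 on marrow KO and 1567 on marrow WT, and 2386 on spleen KO, against 5411 on spleen WT. Its KO minus WT differences were -0.55 in marrow and -0.29 in spleen. The third probe, at base 1026 of a further cDNA, read 94.5 on marrow KO and 134 on marrow WT, and 99.4 on spleen KO and 694 on spleen WT, which gave -0.57 in marrow and -1.91 in spleen. The marrow differences thus spanned -0.57 to -0.51 over the 3 probes, whereas the spleen ones ran from -1.91 to 0.32 and changed sign. The spleen difference of the brightest probe also changed sign with the scaling, being -0.44 after quantile normalization and 0.75 after scaling by the array median.

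Ifi204 was higher in KO spleen by each of its 3 probes. The brightest read 7273 ± 727 on marrow KO and 7919 ± 792 on marrow WT, and 15523 ± 1552 on spleen KO and 11553 ± 1155 on spleen WT. Spleen KO was the highest array, and the 2 marrow arrays differed by less than the scanner errors. KO minus WT was -0.19 in marrow and 1.32 in spleen, a 2.49-fold difference.

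The adjoining probe, whose 60 bases end where those of the brightest begin in the transcript, gave 0.05 in marrow and 1.24 in spleen. The probe shared with Ifi205 and Ifi211 gave -0.63 in marrow and 1.17 in spleen. In spleen the 3 probes thus lay between 1.17 and 1.32, although the value of the brightest fell under 2-fold with other scalings, to 0.58 after quantile normalization, 0.64 after cyclic loess and 0.99 with the percentile taken over probes detected on all arrays. Ifi204 is known to be expressed in macrophages. Of 15 macrophage markers, 11 were at least 2-fold higher and 1 lower in KO spleen, against 19.8% and 14.3% of all measured genes. In KO marrow 4 were higher and 2 lower, against 8.43% and 4.83% of all measured genes. The part of these markers in the Ifi204 value was not tested.

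Ifi205, reported to affect the expression of the adaptor ASC in macrophages, was dim. Its brighter probe read 78.6 ± 9.26 on spleen KO, against 48.3 ± 7.23 on spleen WT, while it read 11.4 ± 4.94 on marrow KO and 18.2 ± 4.88 on marrow WT. Both spleen arrays were well above background and both marrow arrays were not. KO minus WT in spleen was 1.60 with an error of 0.27, a 3.02-fold difference, and spleen exceeded marrow by at least 9.17-fold in KO and by at least 2.63-fold in WT. In log2 these bounds are 3.20 in KO, which fell to 1.70 with normexp background correction and to 1.18 with the median over probes, and 1.39 in WT, which fell under 2-fold with both, to 0.51 and 0.10. A second probe under this name was well above background on none of the 4 arrays, with signals of 4.52 to 5.26.

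Aim2 itself did not pass the background mark on any array. Its probe read 3.70 ± 3.68 on marrow KO, against 3.37 ± 3.37 on marrow WT, and 10.7 ± 3.94 on spleen KO, against 4.28 ± 4.26 on spleen WT. None of the 4 was well above background, and no comparison was made. A probe of this composition that is dim leaves the level of Aim2 RNA unmeasured rather than absent.

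Counted together, 0 of the 2 members measured in marrow were at least 2-fold higher and 0 at least 2-fold lower in KO, where 8.43% of all measured genes were higher and 4.83% lower. In spleen, 3 of 4 measured members (Ifi202b, Ifi204 and Ifi205) were at least 2-fold higher and 0 lower, where 19.8% of genes were higher and 14.3% lower. Spleen minus marrow was at least 2-fold higher for 4 of 4 measured members in KO, where 15.6% of genes were higher and 14.0% lower. Ifi202b and Ifi205 were measured in that comparison through the spleen KO array alone, Ifi202b likewise in the spleen comparison and Ifi205 in WT through the spleen WT array alone, so their direction was fixed by the background filter. In WT it was higher for 1 of 3, Ifi205, where 15.3% were higher and 15.8% lower. These counts describe genes that were chosen on the same arrays, and only the marrow and the WT count do without the spleen KO array. The 2 spleen arrays were on another slide, with another scan, than the 2 marrow arrays, so tissue and slide cannot be told apart. Between the KO arrays the Y-linked signals differed too, with 4 of 4 such genes well above background on marrow KO and 0 of 4 on spleen KO. Sex and tissue therefore cannot be told apart in KO either.

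The tissue difference of the members was larger in KO than in WT. For Ifi204 it was 2.04 in KO and 0.54 in WT, and for Ifi203 it was 1.27 in KO and 0.43 in WT by the brightest probe. The other Ifi203 probes gave 2.04 in KO and 1.78 in WT, and 1.02 in KO and 2.36 in WT, so that its tissue difference was the larger one in WT by the probe farthest from the 3′ end. As both comparisons contain an array that is also part of the KO minus WT values, these are the same 4 numbers seen from the other side.

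The other genes of the cluster varied from gene to gene and from probe to probe. Ifi209, in the files under its older name Pyhin1, encodes a HIN protein with a pyrin domain and read 10804 on marrow KO, against 13286 on marrow WT, and 25589 on spleen KO, against 9581 on spleen WT. Spleen KO stood above the other 3 arrays, and KO minus WT was -0.37 in marrow and 2.31 in spleen. Its other 2 probes gave 2.32 and 1.77 in spleen, all 3 past 2-fold.

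Ifi207 was the one gene of the cluster with a higher level in KO in both tissues by its brighter probe, at 382 on marrow KO and 142 on marrow WT, and 468 on spleen KO and 368 on spleen WT. The differences were 1.36 in marrow and 1.24 in spleen. Its second probe was well above background on spleen WT alone, with levels of -5.65 on spleen KO and -4.12 on spleen WT. That is at least 1.78-fold lower in KO and opposite to the first, and the median over both probes was -0.14.

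Ifi206 repeated what was seen for Ifi203. Its 3 probes lie on a single transcript, and KO minus WT in spleen was 0.18 at base 2005, -1.26 at base 1778 and -1.42 at base 741. In marrow the same probes gave -0.47, -0.85 and -0.64. Ifi211 read 23240 on marrow KO and 25277 on marrow WT, and 35158 on spleen KO and 38586 on spleen WT, with differences of -0.19 in marrow and 0.76 in spleen. In this list 4 of 13 names were on the array; limma's test of genotype over both tissues made 0 calls in it at an adjusted p of 0.05 and 1 at an unadjusted p of 0.05.

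**Figure D2:**
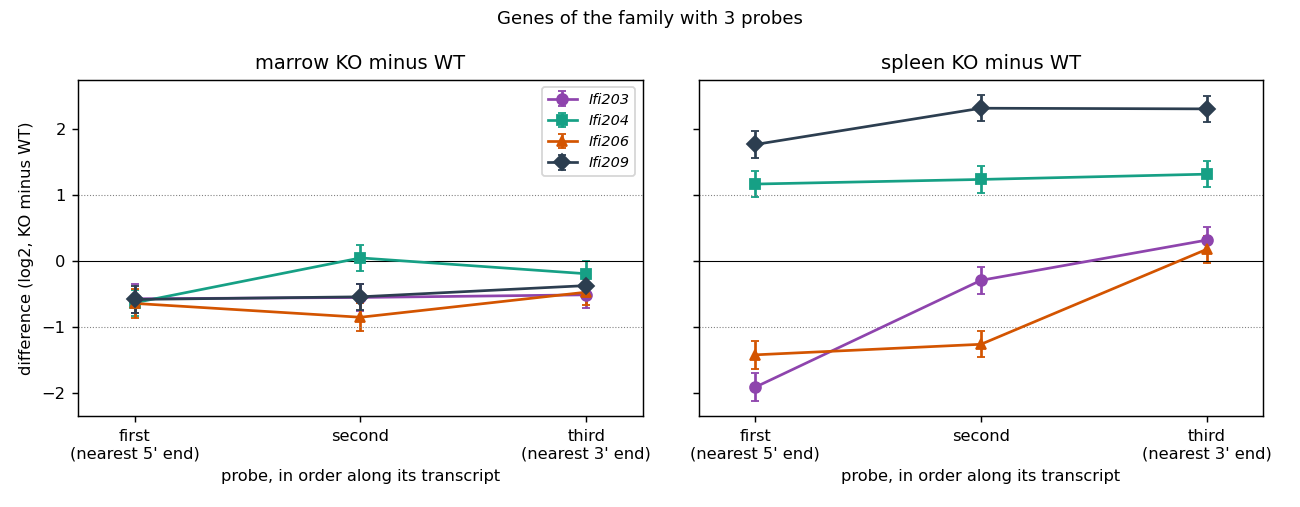
KO minus WT difference (log2) of the 4 genes of the cluster with 3 probes, in marrow and in spleen, with probes in the order of their start along their own transcripts; bars are the error from the 2 scanner errors, and dotted lines mark 2-fold. In spleen, Ifi204 and Ifi209 lie above 2-fold at each probe, while Ifi203 and Ifi206 lie between -1.91 and 0.32. The 3 Ifi203 probes were designed on 3 different cDNAs.

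The neighbours on chromosome 1 did not share the spleen difference of Ifi202b. Within 1 Mb of a member's probe lay 41 genes or names that carry no family name, 18 of them olfactory receptors. In spleen 27 of these were measured, and 1 was at least 2-fold higher in KO and 2 lower, where the array as a whole had 19.8% higher and 14.3% lower. In marrow 33 were measured, with 3 higher and 1 lower, where 8.43% of all measured genes were higher and 4.83% lower.

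Fcer1a, the alpha chain of the high-affinity IgE receptor, was the one higher neighbour in spleen, with levels of -0.53 on spleen KO and -2.67 on spleen WT, a difference of 2.15. Igsf9, a cell adhesion gene, was lower in KO in both tissues, by -1.14 in marrow and -1.21 in spleen. The second lower one in spleen was a cDNA without a gene name that lies inside the cluster, at -96.5 kb from Ifi202b, at -2.18 in spleen and -0.81 in marrow. In marrow, Fcrl6, an Fc receptor-like gene, had a difference of 2.25, Cfap45, a cilia gene, 1.70, and another unnamed cDNA 1.23. Of the 34 tested by limma for genotype over both tissues, 0 passed an adjusted p of 0.05 and 1 an unadjusted p of 0.05.

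**Figure D3:**
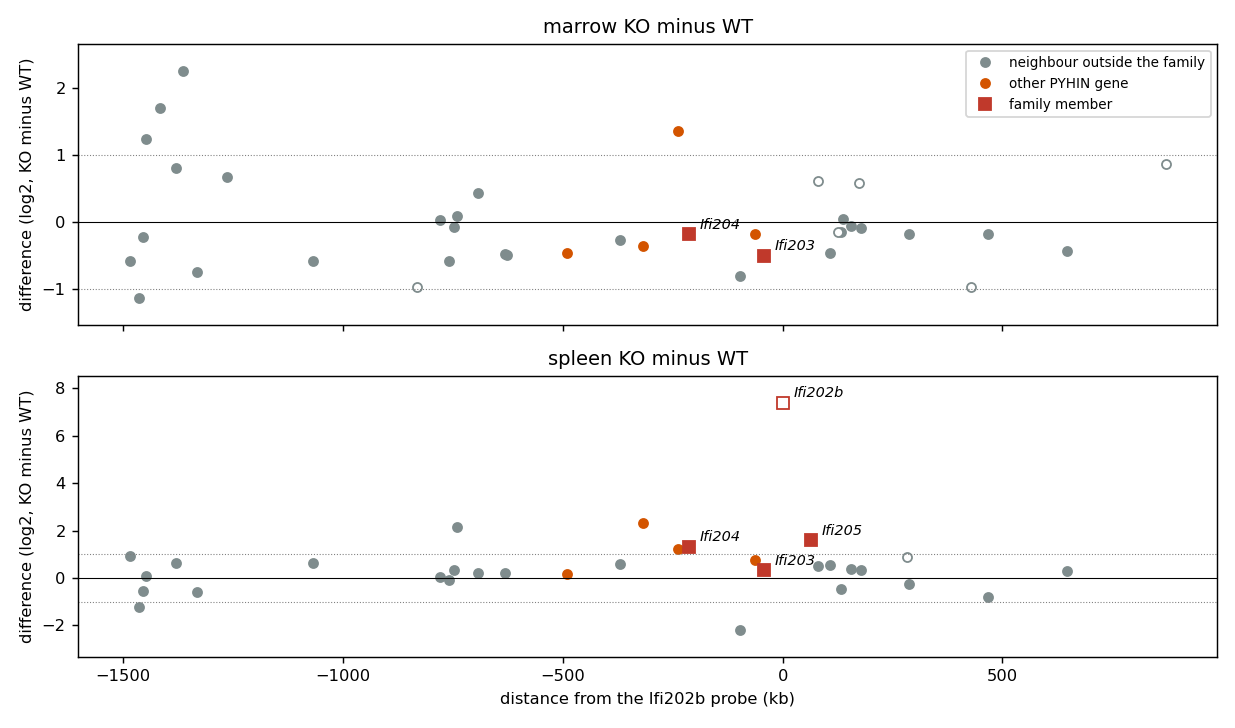
KO minus WT difference (log2) of genes within 1 Mb of a family member's probe against distance from the Ifi202b probe in kb, in marrow (top) and spleen (bottom); squares are members, orange circles other genes of the cluster, grey circles neighbours, open marks lower bounds and dotted lines 2-fold. Bounds under 1-fold are not drawn. In spleen Ifi202b stands at 7.39, with the highest neighbour outside the cluster, Fcer1a, at 2.15.

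The genes whose pattern over the 4 arrays lay closest to that of Ifi202b were Gpr34, Rgs1, Lvrn, 9530051G07Rik and Ak7, by Euclidean distance of mean-centred levels among 21650 genes. Rgs1, a regulator of G protein signalling, read 6889 on spleen KO against 471 on spleen WT, and Gpr34, a receptor of myeloid cells, 2263 on spleen KO against 220 on spleen WT. As Ifi202b was not well above background on 3 of the 4 arrays, its pattern there rests on levels that were not measured. So do these ranks and distances (3.30 for Rgs1 and 3.26 for Gpr34). The closest genes of the other members lay within 0.05 for Ifi203, 0.03 for Ifi204 and 0.19 for Ifi205. For Ifi205 too, neither marrow level was well above background. These closest genes were a cDNA without a gene name for Ifi203, Gm5135 for Ifi204 and Paqr9 for Ifi205. Next came a second unnamed cDNA and Klf16 for Ifi203, Klrd1 and Myo9a for Ifi204, and Hmox1 and an unnamed cDNA for Ifi205. Over 4 arrays such likeness describes the arrays only.

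The partners that carry the signal of these sensors were measured beside them. The counts of this list and of each list after it stand beside 8.43% of all measured genes at least 2-fold higher and 4.83% lower in KO marrow, and 19.8% higher and 14.3% lower in KO spleen. Of 22 inflammasome genes measured in marrow, 6 were at least 2-fold higher in KO and 0 lower, and of 21 in spleen, 7 were higher and 2 lower. Pycard, the adaptor ASC, differed by 0.27 in marrow and 1.41 in spleen, and Casp1 by 0.92 in marrow and 1.70 in spleen. Il1b, the cytokine that caspase-1 cleaves, differed by 4.80 in marrow and 2.56 in spleen, and Mefv, the pyrin gene of neutrophils and monocytes, by 3.04 in marrow and 1.13 in spleen. The neutrophil markers moved with these values, with 12 of 13 at least 2-fold higher in KO marrow and 0 lower, and 6 of 12 higher and 1 lower in KO spleen, as did 11 of 15 macrophage markers in KO spleen, and their part was not tested.

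Sugt1, a co-chaperone of NOD-like receptors, differed by 0.19 in marrow and 2.26 in spleen, and Naip2, a receptor of bacterial secretion proteins, by 2.12 in marrow and -0.47 in spleen. The list's median over genes measured on both arrays was 0.23 in marrow and 0.40 in spleen, beside -0.05 and 0.27 over all genes.

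Of 14 other DNA sensors, 0 differed by 2-fold in marrow and 4 were higher and 0 lower in KO spleen. These were Lrrfip1 at 2.06, the helicase gene Dhx9 at 1.21, Xrcc5, which encodes Ku80, at 1.13, and Zbp1 at 1.03. Cgas, which makes the messenger that activates STING, differed by 0.65 in marrow and -0.17 in spleen. The list's median was -0.18 in marrow and 0.30 in spleen.

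In the STING branch, Sting1, the receptor, differed by 0.01 in marrow and 0.12 in spleen. Of 9 genes measured, 0 differed by 2-fold in marrow, and in spleen 1 was higher and 4 lower, with a list median of -0.17 in marrow and -0.16 in spleen. Irf7, a factor for type I interferon genes, differed by -0.54 in marrow and -2.02 in spleen, Ikbke, a kinase of the pathway, by 0.49 in marrow and -1.59 in spleen, and Irf5 by -0.70 in marrow and -1.49 in spleen. Tbk1, the main kinase, was the higher one at 1.11 in spleen and -0.03 in marrow. Ifnb1 and Ifna4, the interferons at the end of the pathway, were well above background on none of the arrays. Among 9 nuclease and RNA editing genes, 2 were higher and 2 lower in KO spleen, with Trex1, which degrades cytosolic DNA, at -0.85 in marrow and -2.17 in spleen. Adar, an RNA editing enzyme gene, differed by -0.29 in marrow and -1.45 in spleen, and the RNase H2 subunit genes Rnaseh2b and Rnaseh2c by 0.26 each in marrow and by 1.45 and 1.32 in spleen.

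Interferon induces most of the family, so the receptors and other induced genes were set beside it. Of 34 induced genes measured, 8 were at least 2-fold higher and 1 lower in KO marrow, and 14 were higher and 2 lower in KO spleen. The list's median was 0.31 in marrow and 0.69 in spleen. Gbp3, a guanylate-binding protein gene, differed by 0.35 in marrow and 2.64 in spleen, and Ifitm3, an antiviral membrane protein gene, by 2.65 in marrow and 0.24 in spleen. Ifitm1 followed it at 2.32 in marrow and 0.35 in spleen. Oas3, an RNA sensor gene, had opposite signs, at 2.49 in marrow and -2.01 in spleen. None of these 4, chosen for the largest difference in either tissue, was past 2-fold in the same direction in both, while Rtp4 of the same list, looked up after its values were seen, was at 1.02 in marrow and 1.30 in spleen.

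Of 17 interferon receptor and STAT pathway genes, 1 was higher and 1 lower in KO marrow, and 4 were higher and 2 lower in KO spleen. Tyk2, a receptor kinase, differed by -1.16 in marrow and -2.08 in spleen. Ifngr1, a chain of the interferon gamma receptor, differed by 0.54 in marrow and 1.96 in spleen. Socs3, a feedback inhibitor, differed by 1.15 in marrow and 1.57 in spleen, and Jak2, a receptor kinase, by -0.06 in marrow and 1.45 in spleen. Of 16 reported partners of p202 and p204, 4 were higher and 0 lower in KO marrow, and 6 were higher and 2 lower in KO spleen. Id3, an inhibitor of helix-loop-helix factors, differed by -0.22 in marrow and -2.58 in spleen, Id1 by 2.50 in marrow and 1.44 in spleen, Jun by 0.38 in marrow and 2.10 in spleen, and Rela by -0.66 in marrow and -1.99 in spleen.

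limma's test of genotype over both tissues, which has 1 residual degree of freedom, made 0 calls at an adjusted p of 0.05 in each of these lists and 2 over 21651 genes, or 0.00924%, the genes Jhy and Klk1b24. At an unadjusted p under 0.05 it marked 2313 genes, or 10.7%. These held 4 of 22 inflammasome genes, 1 of 14 other DNA sensors and 0 of 9 STING pathway genes. They also held 1 of 9 nuclease and RNA editing genes and 2 of 17 receptor and STAT pathway genes. Of the 34 induced genes 4 were marked, and of the 16 partners 5.

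**Figure D4:**
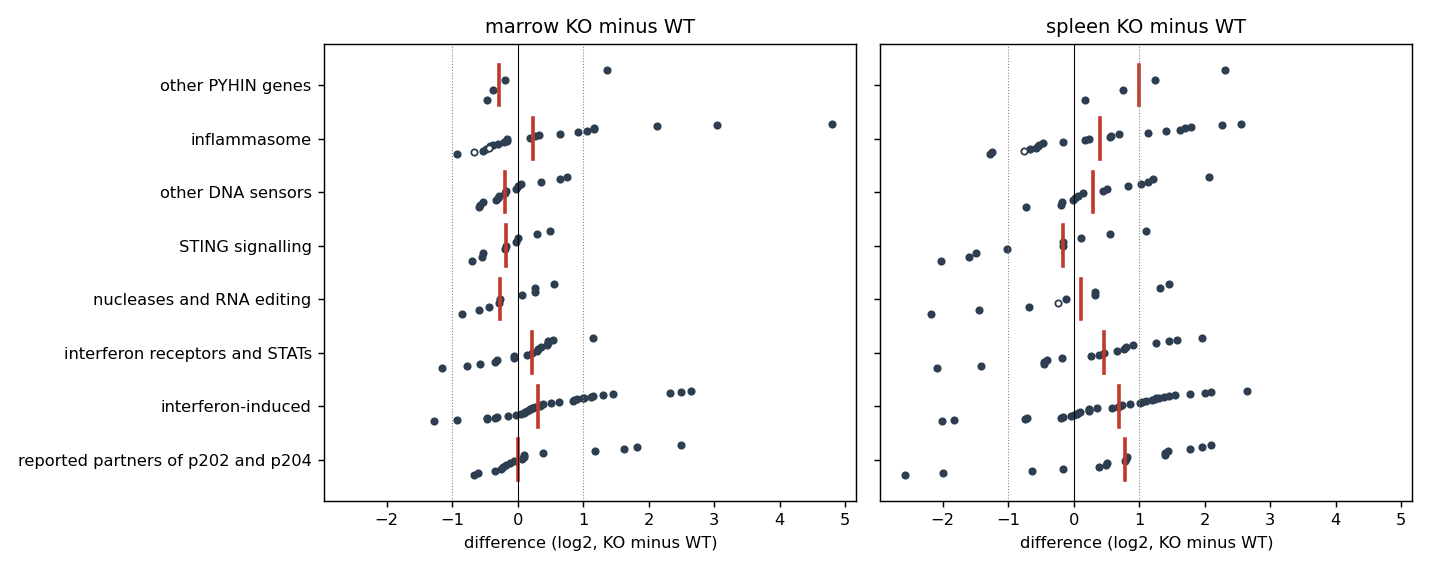
KO minus WT difference (log2) of each measured gene of 8 lists around the family, in marrow and in spleen; each point is a gene, open points are lower bounds, red bars are list medians over genes measured on both arrays, and dotted lines mark 2-fold. The median of the interferon-induced list was 0.31 in marrow and 0.69 in spleen, and that of STING signalling -0.17 in marrow and -0.16 in spleen.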

How the data were processed

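The deposited intensity values came from Agilent Feature Extraction 10.5.1.1, per the file headers, and are background-corrected signals on a linear scale, not normalized between arrays. Per the file headers, the software also gives a p-value against background, which set no filter here. The deposited series matrix equalled these intensities, with the largest difference 0.0, so it is linear and uncentred. Probe places are those of mm9 in the files.

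Control spots were left out of 45018 spots per array, and 72 to 85 spots with a feature outlier mark were dropped; 0 were saturated. Signals were taken to log2 and the array's 75th percentile was subtracted (Python 3.11.15). A gene was read from the probe with the highest mean level over 4 arrays, and was measured where well above background on at least 1 of the 2 arrays. For a bound, the dim side was set to its own level or to the array's lowest level well above background, whichever was higher. Of 41174 probes, 25091 were named by accession, 6329 by current symbol and 1640 by synonym through the reference table, 10 as members and 8104 by the name in the file. Genes at least 2-fold apart were counted, without replicates or p-values. limma 3.58.1 (R 4.3.3), with tissue and genotype as terms and Benjamini-Hochberg adjustment, was used for lists and neighbours only. It treats the tissues as repeats. A trial on simulated data used a smaller spread than the real fit has, so it does not show how the test performs here.

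Members, lists and neighbours were chosen with earlier results of these data known. Named were all members and probes, other genes of the cluster, neighbours at least 2-fold apart, the 4 genes of largest difference per pathway list with Pycard, Casp1, Cgas, Sting1 and Irf7, and the 5 or 3 nearest patterns. RefSeq promoters of GRCm38.p6 were searched by letters. Groups came from the labels, and 0 columns belonged to no sample. One gene that this rule also names is not reported here.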

Additional observations from a re-analysis of the deposited data

Results flagged for a closer look

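In 5 genes of the cluster, KO minus WT had opposite signs in marrow and in spleen. Ifi203 was at -0.51 in marrow and 0.32 in spleen, Ifi204 at -0.19 in marrow and 1.32 in spleen, and Ifi206 at -0.47 in marrow and 0.18 in spleen. Ifi209 was at -0.37 in marrow and 2.31 in spleen, and Ifi211 at -0.19 in marrow and 0.76 in spleen. With 1 array per group the difference between tissues was not tested. The signs are relative to scaling: Ifi203 and Ifi206 turned negative in spleen with quantile normalization, cyclic loess, the percentile over detected probes and the median probe, Ifi211 with cyclic loess, and Ifi204 turned positive in marrow, at 0.05, with the median probe. Ifi209 kept opposite signs in all 6 settings.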

How the results depend on the processing

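With 1 array per group, no array could be left out of a comparison. No paired analysis was possible because each group has 1 array and the labels give no replicate numbers. Of 91 differences of members recomputed, 86 kept their sign, and 0 of those past 2-fold reversed. Of the other cluster genes, Ifi207 in spleen, at 1.24, turned to -0.14 with the median probe. The Ifi202b bound in spleen ran from 5.12 to 7.82, Ifi205 there from 1.08 to 2.02 and Ifi204 from 0.58 to 1.75. With normexp background correction 0 members, and with no filter on dim probes 2, were higher in WT spleen than WT marrow, against 1.

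Counts of genes moved more. Normexp gave 1040 higher and 342 lower in KO marrow, against 1757 and 1008, 1345 lower in KO spleen against 2769, 1739 lower in spleen against marrow of KO (main 2793), and 2011 higher and 2198 lower for WT (main 3213 and 3322). Without the filter, 2054 were lower in KO marrow and 4704 higher in KO spleen over KO marrow (main 3111). Median scaling gave 6475 higher and 1587 lower in KO spleen, against 3853 and 2769, and the percentile over detected probes 2331 higher. At 1.5-fold, counts higher and lower were 2952 and 3061 for marrow, 6403 and 4326 for spleen, 5437 and 4232 for KO tissues, and 5131 and 5929 for WT tissues. limma's 2 genes became 438 with median scaling, 627 with normexp, 584 without the filter, 8 with the median probe and 0 with cyclic loess or the detected-probe percentile. The cause was not tested. The share of calls that were higher in KO spleen, 58.2%, became 80.3% with median scaling, 37.3% with detected probes, 70.2% with normexp and 47.0% with the median probe, and the median of all genes there, 0.27, became 0.70, -0.05, 0.37 and 0.09. In marrow that share, 63.5%, became 75.1% with cyclic loess, 75.3% with normexp and 52.5% without the filter. Median scaling took it to 65.0% in KO and 38.2% in WT between tissues, against 52.7% and 49.2%. Choosing the brightest probe without the spleen KO array, an alternative added after seeing the data, gave 1758 higher and 1014 lower in KO marrow.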
